A study of Ovis aries with 27 samples.

Results

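The interferon-induced genes described here are CXCL10, ISG15, MX1, MX2, IRF1, PSMB8 and RTP4, measured in the heart septum of fetal sheep. They were chosen by name, with earlier results of these data known. Their probes were found by the gene name, accession or description that the scanner files give. All 7 genes were on the array, with 8 probes among 15008, and all 7 entered the tests. The array named 903 genes in all under the symbols used.

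RNA of the septum, the wall that separates the heart's ventricles, was taken from 27 fetuses and measured on 1 single-colour Agilent array each. There were 4 groups: fetuses of ewes infused with cortisol and taken at 140 d of gestation (n = 7), fetuses of vehicle-infused control ewes at 140 d (n = 8), fetuses of cortisol-infused ewes at 130 d (n = 6), and fetuses of vehicle-infused control ewes at 130 d (n = 6). Cortisol, the main glucocorticoid of sheep, was given to the ewe without interruption at 1 mg/kg/d. The design asks what raised maternal cortisol does to transcripts in the fetal heart after a shorter and a longer infusion. The older fetuses were taken between 139 and 144 d, near term, and the younger between 129 and 131 d. For the older cohort the labels start the infusion at day 115. For the younger cohort one label starts it at about day 120, and another gives about day 115 for all ewes. Each age was its own cohort of ewes, with its own length of infusion, and these 3 factors cannot be told apart. The 8 older controls came from 7 ewes, since 1 ewe carried twins that the labels do not identify, and each fetus was treated as independent.

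Interferons are cytokines that cells release when they sense viral or other foreign nucleic acid, and interferon gamma is made mainly by lymphocytes. Bound to their receptors, they activate transcription factors that switch on a broad set of genes for antiviral defence, antigen presentation and leukocyte recruitment. Glucocorticoids are known to restrain much of this transcription in leukocytes and other cells.

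The part of each transcript that an array reads is the probe, so the probe sequences are given as deposited, with ISG15, IRF1 and PSMB8 whole and the others by their last 30 bases. Capitals mark the motif AATAAA, the usual signal for adding a poly(A) tail. It was in 4 of the 8 probes, those of CXCL10, MX2 and RTP4, against 5.63% of all 15008 probes.
CXCL10, bases 31 to 60: ctttccaaAATAAAagtaatgttctctccc
ISG15: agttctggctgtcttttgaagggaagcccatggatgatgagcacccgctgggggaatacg
MX1, bases 31 to 60: caatttgtaatacagttctttctaccagaa
MX2, bases 31 to 60: tataaacttcatattctAATAAAtcacttc
IRF1: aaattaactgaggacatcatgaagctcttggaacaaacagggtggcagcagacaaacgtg
PSMB8: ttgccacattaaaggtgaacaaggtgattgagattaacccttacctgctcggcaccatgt
RTP4, the probe used, bases 31 to 60: ttctggtgtctaaatacttatgAATAAAaa
RTP4, second probe, bases 31 to 60: tttctggtgtctaaatacttatgAATAAAa

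The RTP4 probes shared 59 of their 60 bases and so read the same site of the transcript; the brighter one stands for the gene. MX1 and MX2 are related genes that lie next to each other in the sheep reference table, with 0 genes between them, yet their probes shared no run longer than 5 bases. Among the probes of different members the longest shared run was 9 bases. No other probe on the array (0 of them) shared 30 bases or more with a member probe.

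Each value below is the log2 of a probe's intensity minus that array's 75th percentile, so that 0 is the brightness of that percentile. Differences between groups come from 1 limma fit over the 27 arrays, and a gene was called where its p, adjusted by Benjamini-Hochberg over 12778 tested probes, was under 0.05. Tests compare levels between groups for 1 probe. Levels of different probes meet only in choosing a gene's brighter probe, in placing myoglobin below and in the summed leukocyte markers. Arrays had 77.0% to 87.0% of spots well above background, and 75th percentiles of intensity averaged 884 ± 149 in cortisol fetuses at 140 d, 838 ± 59.3 in controls at 140 d, 1093 ± 77.0 in cortisol fetuses at 130 d and 1160 ± 101 in controls at 130 d (SD; n = 7, 8, 6 and 6). Results that rest on the 130 d controls are given with and without their replicate 3. That split was set beforehand, with earlier results of these data known. Replicate 3 was the highest of all 27 arrays for 7 of 7 members. The labelled tissue could be checked with only 1 cardiomyocyte marker, myoglobin (MB), which was among the brighter probes on every array, at 182 to 456 times the 75th percentile. The other 20 listed cardiomyocyte markers had no named probe.

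**Figure D1:**
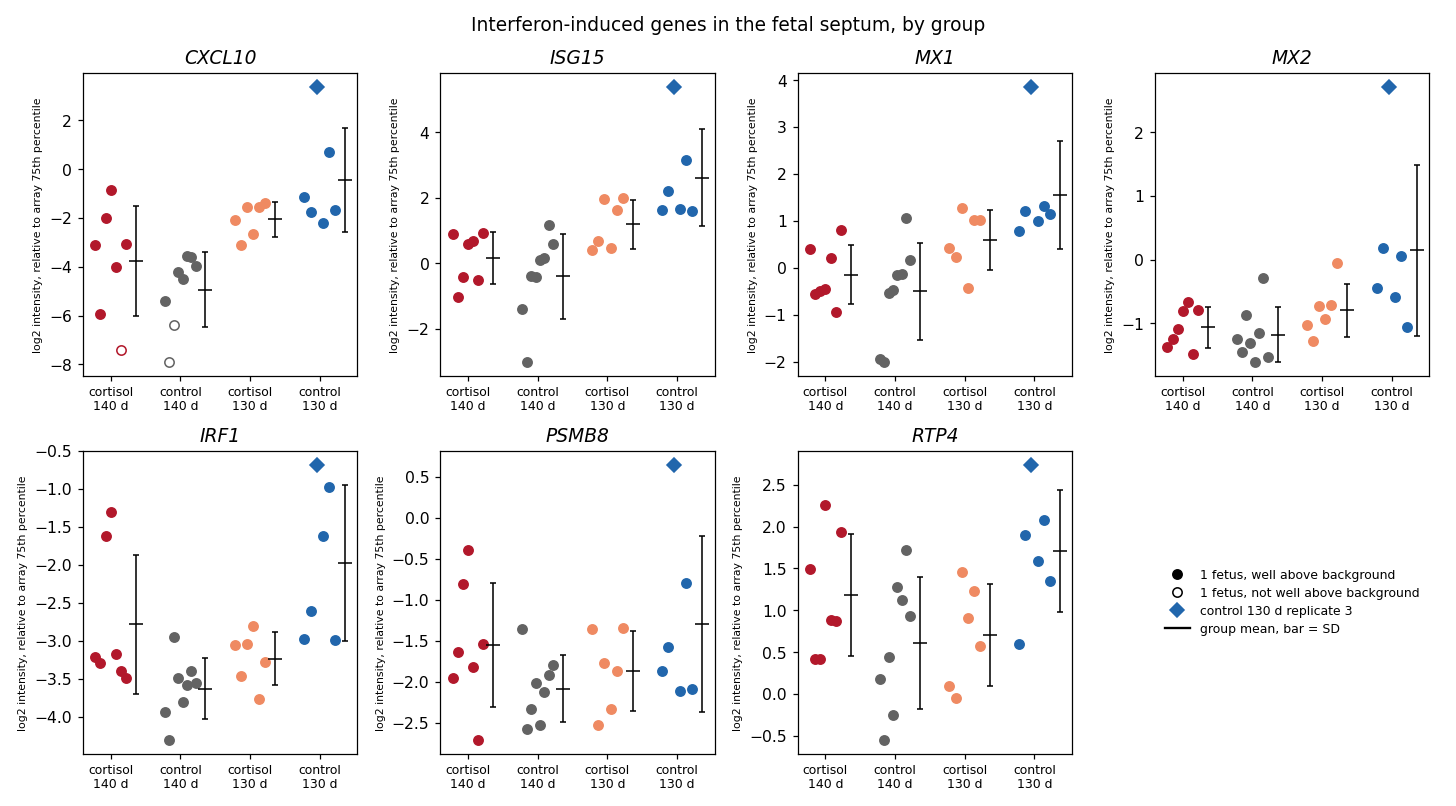
Log2 intensity relative to the array's 75th percentile (vertical axes, 1 panel per gene) for each fetus, by group, with the group mean and its SD beside the points. Open circles are CXCL10 values not well above background, and the diamond, the highest point of every panel, is replicate 3 of the 130 d controls.

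The clearest difference was between the ages in control fetuses: at 140 d, 6 of the 7 genes were lower than at 130 d. CXCL10 differed by 22.5-fold, with low values partly in the background, and ISG15 by 8.07-fold. The CXCL10 value depended on 1 array and on the background correction. Its log2 difference of -4.49 became -3.73 without replicate 3 of the 130 d controls and -2.79 with normexp correction. The normexp correction here added an offset of 50 to each intensity, which by itself shrinks differences of dim probes. The proteasome subunit PSMB8 did not pass. Over all tested probes 9.35% were called lower in that comparison and 19.1% in either direction. The median log2 difference was -1.66 over the 7 members and -0.01 over all tested probes. Since the members were chosen with earlier results of these data known, these shares and medians describe the set and do not test it. Without replicate 3 of the 130 d controls, 5 of 7 were called lower, against 6.41% of all probes, and the median was -1.40. Within each of the 3 slides that held both groups, the difference was negative for all 7 members. These are bulk samples, in which fewer cells of a type and less RNA per cell cannot be told apart.

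IRF1 is a transcription factor that interferon gamma induces and that in turn drives many other interferon-responsive genes. Its log2 values lay between -4.31 and -2.96 in controls at 140 d, with a median of -3.57, and between -3.00 and -0.68 in controls at 130 d, with a median of -2.11. The ranges met only at their ends, and 8 of 8 older controls were below the mean of the younger ones. The fetuses at 130 d were spread widely: replicates 3, 4 and 5 lay at -0.68, -1.62 and -0.97, while replicates 1, 2 and 6 lay between -3.00 and -2.61. The difference was -1.66 ± 0.37 (SE, limma adjusted p = 0.00364), and -1.40 ± 0.37 without replicate 3 (adjusted p = 0.0147). Normexp background correction gave -0.98 and ended the call (adjusted p = 0.122). Its offset of 50 is large beside the IRF1 intensities of controls at 140 d, which were 40.5 to 113.

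CXCL10 encodes a chemokine that draws activated T cells into tissue. In controls at 140 d its log2 values lay between -7.91 and -3.57, with a median of -4.35. In controls at 130 d they lay between -2.21 and 3.39, with a median of -1.41. The groups did not overlap, in the full set or without replicate 3; 2.20% of all tested probes were lower at 140 d without overlap. At 140 d 2 of the 8 control arrays, and at 130 d 0 of 6, had this probe not well above background, so the low end is not a measured level. The difference was -4.49 ± 0.91 (SE, limma adjusted p = 0.00159), and -3.73 ± 0.85 without replicate 3 (adjusted p = 0.00622). Normexp correction gave -2.79.

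ISG15 encodes a ubiquitin-like protein that is attached to other proteins during an interferon response. Its log2 values lay between -3.02 and 1.16 in controls at 140 d, with a median of -0.13, and between 1.61 and 5.40 in controls at 130 d, with a median of 1.95. It was the other member whose groups did not overlap. The probe was well above background on all 27 arrays, so the 8.07-fold difference is a measured ratio at both ends. On the log2 scale it was -3.01 ± 0.58 (SE, limma adjusted p = 0.0011), and -2.46 ± 0.52 without replicate 3 (adjusted p = 0.00375).

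MX1 and MX2 encode dynamin-like GTPases, of which MX1 is known in mice and humans to block influenza and related viruses. MX1 values lay between -2.01 and 1.06 in controls at 140 d, with a median of -0.31, and between 0.78 and 3.86 in controls at 130 d, with a median of 1.18. A single older fetus, replicate 7, reached into the younger range. MX1 differed by -2.06 ± 0.46 (SE, limma adjusted p = 0.00351), and by -1.59 ± 0.40 without replicate 3 (adjusted p = 0.0117).

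For MX2, values lay between -1.61 and -0.28 in controls at 140 d, with a median of -1.28, and between -1.06 and 2.71 in controls at 130 d, with a median of -0.19. The upper part of the older range overlapped the lower part of the younger one. MX2 differed by -1.32 ± 0.37 (SE, limma adjusted p = 0.014). Replicate 3 alone moved that difference by more than 1.5 times: without it the value was -0.81 ± 0.23 (adjusted p = 0.0219). The call did not hold with normexp correction (-1.20, adjusted p = 0.0554) or in a fit of the compared groups only (adjusted p = 0.0536).

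RTP4 encodes a chaperone that helps certain receptors reach the cell surface, and is also interferon-induced. Its values lay between -0.55 and 1.72 in controls at 140 d, with a median of 0.69, and between 0.59 and 2.74 in controls at 130 d, with a median of 1.75. The ranges overlapped between 0.59 and 1.72, and 7 of 8 older controls were below the younger mean. The probe used gave -1.10 ± 0.37 (SE, limma adjusted p = 0.0384) and the second probe -1.20 ± 0.37 (adjusted p = 0.0242). This was the least stable of the 6 calls. It was lost on leaving out any of control 130 d replicates 2, 3, 4 and 5 or control 140 d replicates 1, 2, 3 and 4, with values between -1.12 and -0.89 and adjusted p between 0.0555 and 0.114. The call also ended with the authors' deposited values (-1.01, adjusted p = 0.0511), a median shift (-1.01, adjusted p = 0.0514), normexp correction (-1.10, adjusted p = 0.0639) and a fit of the compared groups only (adjusted p = 0.0529).

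PSMB8 encodes a catalytic subunit of the immunoproteasome, which replaces its constitutive counterpart and cuts peptides for display on MHC class I. Values lay between -2.58 and -1.36 in controls at 140 d, with a median of -2.07, and between -2.11 and 0.65 in controls at 130 d, with a median of -1.73. The groups overlapped. The difference was -0.78 ± 0.36 (SE, limma adjusted p = 0.13) and -0.39 ± 0.31 without replicate 3 (adjusted p = 0.413).

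**Figure D2:**
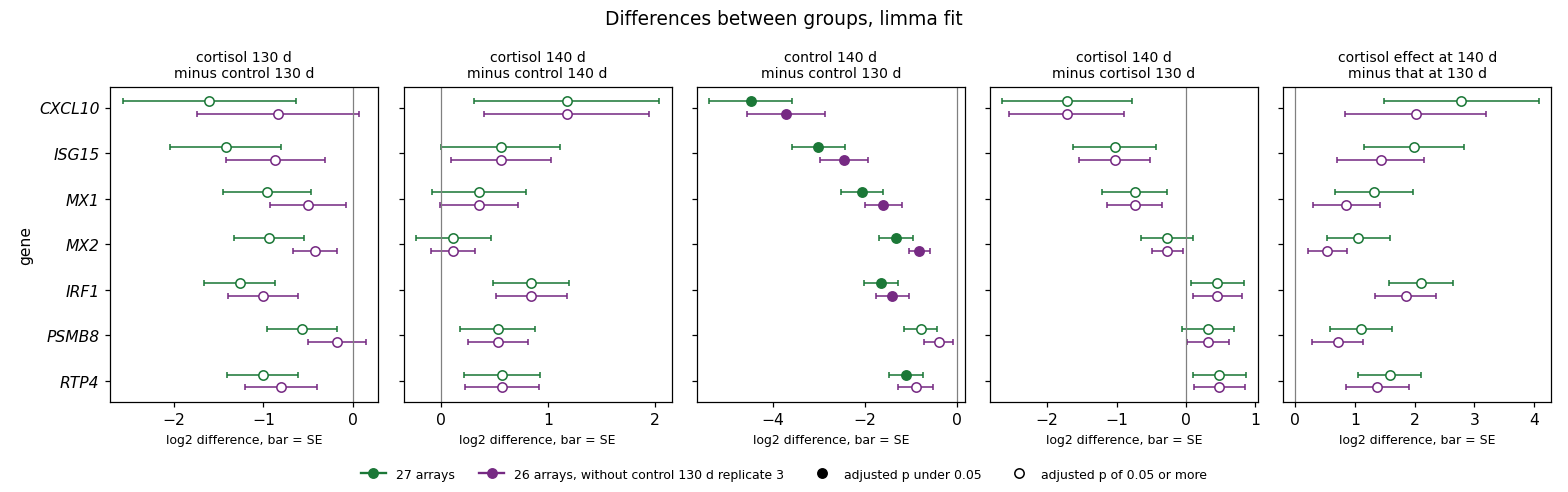
Log2 difference (horizontal axes, bars are SE) of each gene in the 5 comparisons, over 27 arrays and over 26 without replicate 3 of the 130 d controls. Filled points, all in the control age comparison, passed an adjusted p of 0.05: 6 of 7 genes over 27 arrays and 5 of 7 over 26.

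Between the ages in cortisol-exposed fetuses no member passed (0 of 7), while 13.5% of all tested probes did in either direction. At an unadjusted limma p under 0.05 the count was also 0 of 7, against 28.1% of all probes. With replicate 3 of the 130 d controls out of the fit, which changes only the shared estimate of spread here, it was 1 of 7, CXCL10. The median log2 difference was -0.27 over the members and -0.04 over all probes, and the members divided into 4 negative and 3 positive differences. CXCL10 differed by -1.71 ± 0.93 (SE, limma adjusted p = 0.234), ISG15 by -1.03 ± 0.60 (adjusted p = 0.268), MX1 by -0.74 ± 0.47 (adjusted p = 0.321) and MX2 by -0.27 ± 0.38 (adjusted p = 0.687). IRF1, PSMB8 and RTP4 had positive values of 0.45 ± 0.38, 0.32 ± 0.38 and 0.48 ± 0.38 (SE, limma adjusted p = 0.477, 0.628 and 0.442). ISG15 lay between -1.04 and 0.94 with a median of 0.59 at 140 d, and between 0.42 and 2.01 with a median of 1.15 at 130 d. Of the older fetuses, 7 of 7 were below the younger mean for ISG15. With slide as a fixed block and replicate 3 of the 130 d controls left out, ISG15 and MX1 passed (-1.32, adjusted p = 0.0247, and -1.01, adjusted p = 0.0295). This alternative was added after seeing the data, and 1844 of 12778 probes passed in it. It was the only 1 of 26 alternatives in which either gene passed.

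Cortisol against control gave differences of opposite sign at 130 d and at 140 d, and no member was called at either age. At 130 d the difference was negative for 7 of 7 members, with a median of -1.01 over the members and 0.01 over all tested probes. None passed (0 of 7), as did 0% of all probes, and limma gave an unadjusted p under 0.05 for 4 of 7 members and 3.56% of all probes. Without replicate 3 of the controls that count was 1 of 7 and the median -0.80. At 140 d the difference was positive for 7 of 7, with a median of 0.56 against -0.04 over all probes, and again 0 of 7 and 0% of all probes passed. There 1 of 7 members and 5.69% of all probes had an unadjusted p under 0.05. Within the 3 slides that held both groups the 130 d difference was negative for every member, except MX2 on slide 4 (0.11). At 140 d 4 slides held both groups; on slide 4, with 1 array a group, 5 of 7 members had a negative difference, and on the other 3 slides all were positive. Both comparisons of age and both of cortisol draw on the same 4 groups, so their values are not independent of each other. As between the control ages, the members' counts and medians describe the set and do not test it.

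IRF1 had the smallest p at both ages. At 130 d its log2 values lay between -3.77 and -2.80 with cortisol, with a median of -3.17, and the control values were those given above. Of the 6 cortisol fetuses, 5 lay below every control, and replicate 4, the highest of them, lay among control replicates 1, 2 and 6. The difference was -1.26 ± 0.40 (SE, limma adjusted p = 0.989), and -1.004 ± 0.39 without replicate 3. At 140 d IRF1 lay between -3.49 and -1.30 with cortisol, with a median of -3.21, and 7 of 7 cortisol fetuses were above the control mean. Replicates 3 and 4 of the cortisol fetuses, at -1.63 and -1.30, stood above the other 5, which lay between -3.49 and -3.18. The difference was 0.84 ± 0.36 (SE, limma adjusted p = 0.808), and between 0.60 and 0.96 with single arrays left out.

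For CXCL10 at 130 d, cortisol fetuses lay between -3.11 and -1.37 with a median of -1.82. Control replicates 1, 3 and 5 lay above every cortisol fetus. The difference was -1.60 ± 0.97 (SE, limma adjusted p = 1), and -0.84 ± 0.90 without replicate 3. At 140 d the cortisol fetuses were spread over 6.57 log2 units, between -7.41 and -0.84 with a median of -3.11, and on 1 of 7 arrays the probe was not well above background. The difference there was 1.18 ± 0.87 (SE, limma adjusted p = 0.808), and within single slides it lay between -2.92 and 2.87. With single arrays left out it lay between 0.69 and 1.78.

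ISG15 at 130 d lay between 0.42 and 2.01 in cortisol fetuses, with a median of 1.15, and differed from controls by -1.42 ± 0.62 (SE, limma adjusted p = 1). Leaving out control replicate 3 gave -0.87 ± 0.55. At 140 d it lay between -1.04 and 0.94 with cortisol, wholly inside the control range, and differed by 0.56 ± 0.56 (SE, adjusted p = 0.823). The remaining members had the same signs. At 130 d MX1 differed by -0.96 ± 0.49, MX2 by -0.94 ± 0.39, RTP4 by -1.01 ± 0.40 and PSMB8 by -0.57 ± 0.39. At 140 d MX1 differed by 0.36 ± 0.44, MX2 by 0.12 ± 0.35, RTP4 by 0.57 ± 0.36 and PSMB8 by 0.53 ± 0.35. Without control replicate 3 the 130 d values of MX1, MX2 and PSMB8 were -0.50, -0.42 and -0.18.

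The difference between the cortisol effect at 140 d and that at 130 d was tested directly. It was positive for 7 of 7 members, with a median of 1.58 over the members and -0.04 over all tested probes, and 0 of 7 passed, as did 0% of all probes. With an unadjusted p under 0.05 there were 5 of 7 members and 5.81% of all probes, and 2 of 7 members without replicate 3 of the 130 d controls. The members were chosen with earlier results known and were correlated, so these counts describe the set and do not test it. IRF1 had the smallest p, with a difference of 2.11 ± 0.53 (SE, limma adjusted p = 0.259), and 1.85 ± 0.51 without replicate 3. RTP4 followed at 1.58 ± 0.53 (SE, limma adjusted p = 0.483). CXCL10 had the largest estimate and the widest error, 2.78 ± 1.30 (SE, limma adjusted p = 0.814).

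In the order of group means, controls at 130 d were highest and controls at 140 d lowest for 7 of 7 members. Without replicate 3 the 130 d controls were highest for 6 of 7, and for PSMB8 their mean of -1.69 was below the -1.55 of cortisol fetuses at 140 d. With all arrays the cortisol groups lay between the control groups: the 130 d group above the 140 d group for CXCL10, ISG15, MX1 and MX2, and below it for IRF1, PSMB8 and RTP4. Neighbouring groups in this order overlapped in range in 21 of 21 pairs. The gap between neighbours was larger than the larger of their SDs in 2 pairs, ISG15 and MX1 in cortisol fetuses at 140 d and at 130 d.

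**Figure D3:**
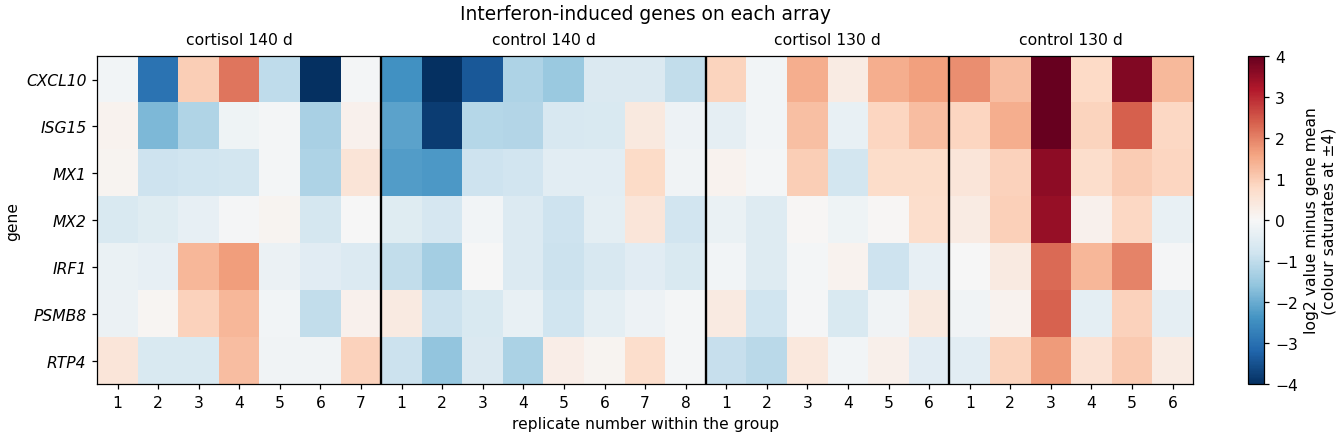
Each of the 27 arrays (columns, by group and replicate number) against the 7 genes (rows); colour is the log2 value minus the gene's mean over the 27 arrays. Replicate 3 of the 130 d controls is high in every row and replicate 5 is among the 3 highest arrays for every gene, while cortisol 140 d replicates 3 and 4 are high for CXCL10, IRF1 and PSMB8 and not for ISG15 and MX1.

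In each group the members' median SD between fetuses was larger than that of all tested probes. The median SD of the members was 0.76 in cortisol fetuses at 140 d, 0.79 in controls at 140 d, 0.61 in cortisol fetuses at 130 d and 1.15 in controls at 130 d. Over all tested probes the medians were 0.33, 0.27, 0.21 and 0.24. Without replicate 3 the 130 d controls had a member median of 0.58. In that group replicate 3 was highest for 7 of 7 members, and replicate 5 was among the 3 highest of the 27 arrays for 7 of 7. The cortisol 140 d replicate 4 was the highest of its group for 4 members, CXCL10, IRF1, PSMB8 and RTP4, but at -0.45 for MX1 it was the group's median. For MX1 the highest of that group was replicate 7, at 0.81. Cortisol 140 d replicate 4 had the lowest 75th percentile of intensity of the 27 arrays, 602. Its height was not particular to the members: it ranked 1 of 27 for PECAM1, DCN and VIM, and 27 of 27 for MB and PSMA6.

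Deviations from the group mean were positively correlated for all 21 pairs of members over 27 arrays, with a median Pearson r of 0.64, and over 26 arrays without control 130 d replicate 3 the median was 0.49. These are descriptions over arrays that share slides and a common scaling. ISG15 and MX1 were the most alike, with an r of 0.92 over 27 arrays and 0.88 over 26. RTP4 went with them, at 0.77 with ISG15 over 26 arrays. IRF1 and PSMB8 were at 0.60 with each other over 26 arrays, and MX1 was at 0.04 with IRF1 and 0.14 with PSMB8, the lowest pairs of the 21. CXCL10 belonged to neither side, at 0.73 with PSMB8, 0.70 with ISG15, 0.56 with RTP4 and 0.55 with both MX1 and IRF1. With cortisol 140 d replicate 4 left out as well, the r of all pairs lay between 0.09 and 0.90. IRF1 with PSMB8 was then at 0.47 and CXCL10 with IRF1 at 0.42, while CXCL10 was at 0.66 with both MX1 and PSMB8.

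**Figure D4:**
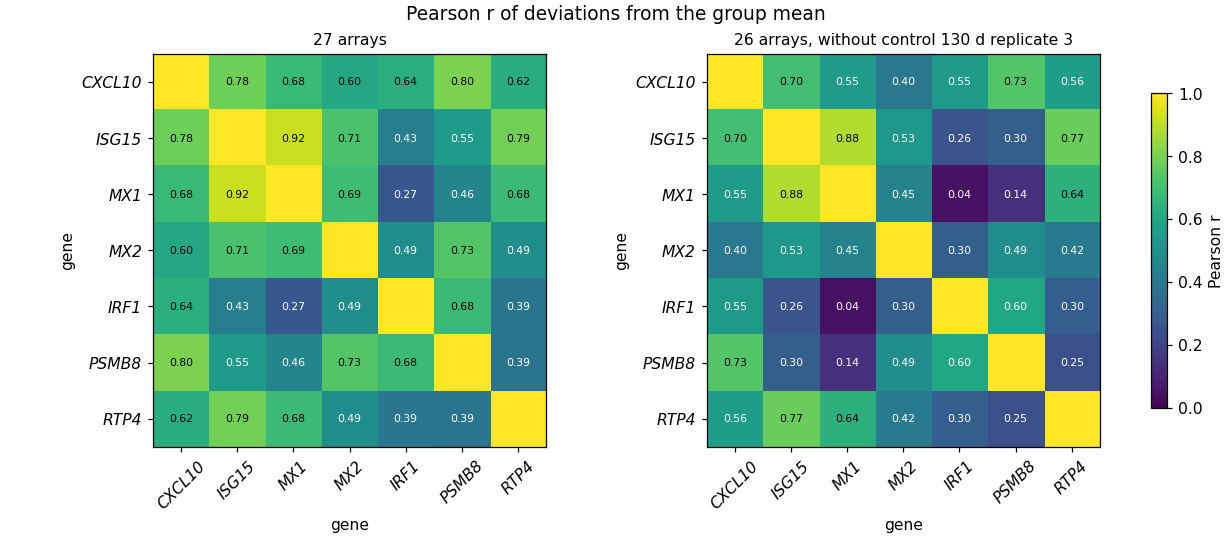
Pearson r between the genes' deviations from their group means, over 27 arrays (left) and over 26 without replicate 3 of the 130 d controls (right), with no test. ISG15 with MX1 is the highest pair on both sides, 0.92 and 0.88, and IRF1 with MX1 the lowest, 0.27 and 0.04.

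Outside the members, the named genes whose deviations were among the most like the members' mean over 27 arrays included the MHC class II beta chain MHCII-DRB1 (r = 0.83), LOC100101238, described as regakine 1-like (0.79), the lysosomal protease CTSS (0.77), the double-stranded RNA sensor TLR3 (0.71) and the MHC class II alpha chain OVAR-DQA1 (0.69). Over 26 arrays MHCII-DRB1 was again first (0.76), and LOC100101238 was also among the first 6 (0.70). The others of the first 6 were then CA11, a carbonic anhydrase-like protein (0.72), the transcription factor BHLHE40 (0.68), and CATHL1B and BAC5, antimicrobial peptides of the cathelicidin family (0.67 and 0.63). OVAR-DQA1 was at 0.44 over those 26 arrays. Of 12771 other probes, 30 had an r over 0.8 over 27 arrays and 6 over 26, and the median r was -0.06 over 27.

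Upstream of the members, the 1 listed interferon that was measured was higher at 140 d in controls. The 2 receptor genes tested were not called. Of the 13 interferons listed, interferon gamma (IFNG) was the only one named on the array, and it was higher at 140 d, by 0.69 ± 0.12 (SE, limma adjusted p = 0.00038; 0.74 without replicate 3, adjusted p = 0.00089). Its mean was -3.82 ± 0.20 in controls at 140 d and -4.52 ± 0.18 in controls at 130 d (SD, n = 8 and 6), and control 130 d replicate 3 ranked 20 of 27. The second IFNG probe was well above background on 0 arrays. The other scalings, background correction and blocks were read for the members only. The calls of IFNG and of the other genes below were therefore not checked against them. A second interferon probe, described as interferon-alpha 4 under the unlisted symbol IFN1, was well above background on 16 arrays. It had the opposite sign and was not called (-0.37 ± 0.29, SE, limma adjusted p = 0.393). The subunits of the type I interferon receptor, IFNAR1 and IFNAR2, differed by 0.03 ± 0.12 and -0.04 ± 0.14 (SE, limma adjusted p = 0.891 and 0.879).

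Other interferon regulatory factors than IRF1 were called in both directions between the control ages. IRF3, which switches on interferon genes themselves, differed by -0.38 ± 0.10 (SE, limma adjusted p = 0.0119) by the brighter probe, and IRF2, which competes with IRF1 for its sites, by 0.32 ± 0.11 (SE, adjusted p = 0.0396). The second IRF3 probe was not called (-0.27, limma adjusted p = 0.0899). IRF2 did not pass without replicate 3 (adjusted p = 0.0541).

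By their brighter probes, none of the 5 sensor genes tested (TLR2, TLR3, TLR4, TLR7 and MYD88) was called, with differences between -0.54 and 0.00. The second TLR2 probe, well above background on 6 arrays, was called lower (-1.26 ± 0.43, SE, limma adjusted p = 0.0417), but not without replicate 3 (-0.93, adjusted p = 0.137). TLR8 and TLR9 were too dim to be tested. Of 2 antigen processing genes measured besides PSMB8, CTSS, which trims the MHC class II invariant chain, was lower (-1.37 ± 0.30, SE, limma adjusted p = 0.0033), and PSME2, an activator subunit of the proteasome, was not called (-0.22 ± 0.12, adjusted p = 0.188). The 3 other proteasome subunits measured, which are not all particular to its constitutive form, had the opposite sign to PSMB8, itself not called. PSMA6, PSMB7 and PSMD4 were higher at 140 d by 0.39 ± 0.11, 0.39 ± 0.08 and 0.46 ± 0.11 (SE, limma adjusted p = 0.015, 0.00278 and 0.00579). None of the negative regulators or the other interferon-induced genes listed was named on the array under its symbol. A probe described as interferon-induced protein 1-8U, picked after the lists were made, differed by -0.81 ± 0.27 (SE, adjusted p = 0.0362).

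**Figure D5:**
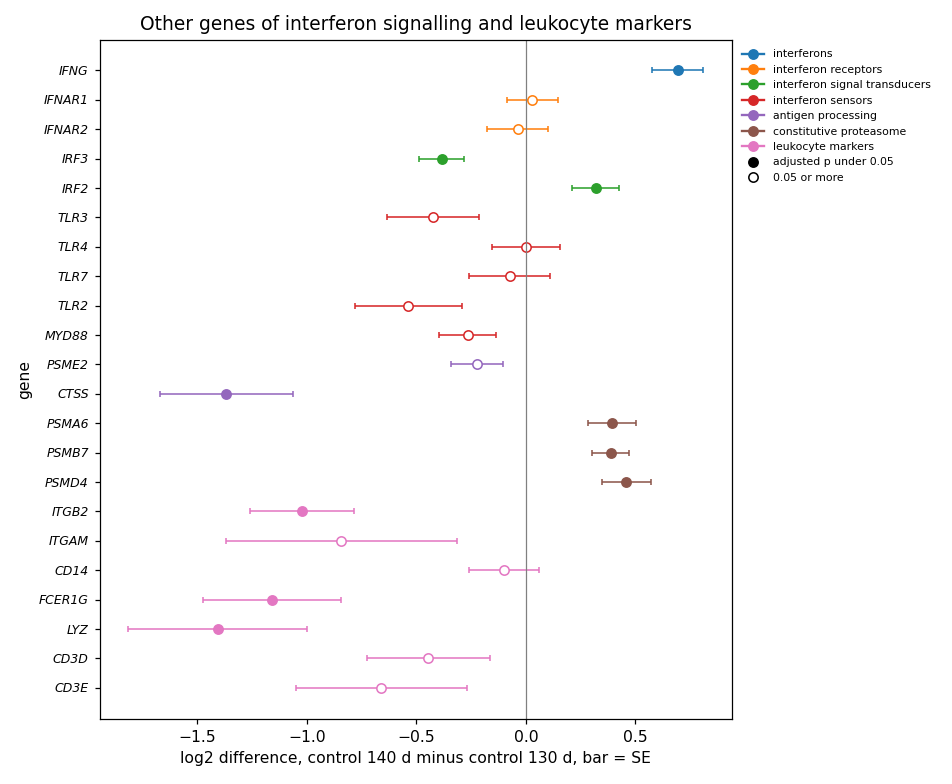
Log2 difference, control fetuses at 140 d minus those at 130 d (horizontal axis, bars are SE), for other genes of the pathway and leukocyte markers (rows, coloured by list). Filled points passed an adjusted p of 0.05, among them IFNG at 0.69 and the 3 proteasome subunits on the higher side and CTSS at -1.37 and IRF3 at -0.38 on the lower.

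Outside the control age comparison few of these genes passed. Of the pathway lists, only PSMB7 and PSMD4 did so, in the age comparison of cortisol fetuses, where they were higher at 140 d by 0.28 ± 0.09 and 0.38 ± 0.11 (SE, limma adjusted p = 0.0296 and 0.0272). IFNG differed by 0.43 ± 0.13 between cortisol and control at 130 d (SE, adjusted p = 0.879) and by -0.23 ± 0.11 at 140 d (SE, adjusted p = 0.808), the reverse of the signs of the members.

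Between the control ages the leukocyte markers tested had the same sign as the members. Of 33 listed, 8 were on the array and 7 were tested. CD4 was well above background on 0 arrays. Their summed level, in multiples of the array's 75th percentile, was 0.757 to 2.40 in cortisol fetuses at 140 d, 0.647 to 1.02 in controls at 140 d, 0.793 to 1.45 in cortisol fetuses at 130 d and 1.00 to 2.90 in controls at 130 d. The highest of the 27 sums was again control 130 d replicate 3, and the brighter markers weigh most in such a sum. In controls 7 of 7 had a negative difference at 140 d, with a median of -0.84, and 3 were called lower: the integrin subunit ITGB2 (-1.02 ± 0.24), the Fc receptor subunit FCER1G (-1.16 ± 0.31) and lysozyme, LYZ (-1.41 ± 0.41; SE, limma adjusted p = 0.00463, 0.0124 and 0.0179). Without replicate 3, 2 were called by the probes used and LYZ was not (adjusted p = 0.0641), while the second LYZ probe was (-1.79, limma adjusted p = 0.0266). The T cell markers CD3D and CD3E, ITGAM and CD14 were not called, and CD14 differed by -0.10 ± 0.16 (SE, limma adjusted p = 0.704). Between cortisol and control at 140 d, where 7 of 7 members were positive, 2 of 7 markers were negative, CD3D (-0.33) and CD3E (-0.45). The red blood cell markers AHSP and HBB were also called lower at 140 d in controls, as was 1 of 3 fibroblast markers, COL3A1. The second probes of HBB and COL3A1 were not called (limma adjusted p = 0.086 and 0.0946). Of 6 endothelial markers 0 were called, as was 0 of 1 for smooth muscle, and MB was called higher. Without replicate 3 the probes used for COL3A1 and MB were not called (limma adjusted p = 0.0879 and 0.0615), and the second MB probe was (limma adjusted p = 0.0499). The part of these cell types in the differences of the members was not tested.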

How the data were processed

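Septum RNA was measured in 27 fetuses, 1 array each. The scanner files give spot intensity values; per the file headers the authors' software had subtracted background and removed spatial trends, with no step that scaled arrays to each other. That software was Agilent Feature Extraction, version 10.1.1.1, a label taken from the submitters' processing notes. A series table that the authors deposited holds log2 values, equal to log2 of those intensities minus 1 constant per array; what sets the constant is not stated. Outlying spots were dropped and spots of a probe averaged. A probe was tested if at least 6 arrays had it well above background (12778 probes). A gene with several probes is represented by the one with the highest mean. Group means were fitted with limma 3.58.1 (R 4.3.3), with no batch term and Benjamini-Hochberg adjustment over all tested probes. The number of arrays limits the precision. Each p-value sets a difference against the spread between fetuses within the 4 groups, and does not cover variation between cohorts of ewes. The script was tested on simulated data. Gene naming used the files' names and the supplied RefSeq table (assembly ARS-UI_Ramb_v3.0). All members were named, with pathway genes passing in any comparison (at most 4 per list), the interferons and receptors, and the 6 named genes most like the members; 1 gene that these rules name is not reported here. Members and lists were chosen with earlier results of these data known. The 5 slides, each scanned once, were tried as a block. Alternatives were normexp background correction with an offset of 50, quantile, median and deposited scaling, dim-probe filters, fits of fewer groups and leaving out each array. Replicate numbers were not treated as pairing samples.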

Additional observations from a re-analysis of the deposited data

Results flagged for a closer look

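In the 130 d controls, replicate 3 stood far from the other 5 fetuses for MX1 and MX2. MX1 was at 3.86 there, on the log2 scale relative to the array's 75th percentile, against 0.78 to 1.32 in the other 5. MX2 was at 2.71, against -1.06 to 0.18. The gap to the nearest fetus exceeded Dixon's 95% critical value in these 2 of the 28 combinations of gene and group tested, where chance passes about 1 in 20. The count is near that share, and both values come from 1 array and from genes that were correlated (r = 0.69 over 27 arrays). That array had been set apart beforehand, so the test is no independent sign that it is unusual. On the same array the summed leukocyte markers were the highest of 27, at 2.90 times the 75th percentile. The brighter markers weigh most in that sum. Singly, ITGB2, FCER1G and LYZ ranked 1 of 27 there, while CD3E, CD3D, CD14 and ITGAM ranked 3, 5, 7 and 9. The part of leukocytes in the MX1 and MX2 values was not tested.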

How the results depend on the processing

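No difference of a member changed sign in any alternative fitted over the slides together, each scaling included; within single slides signs varied in every comparison but that of the control ages. In the control age comparison CXCL10, ISG15 and MX1 passed in 27 of 27 alternatives, IRF1 in 26, MX2 in 25, RTP4 in 14 and PSMB8 in 0. The count of members called there was 3 with normexp background correction, 4 in a fit of the compared groups only, 5 with a median shift or the authors' deposited values, and 5 to 6 with each array left out. In the age comparison of cortisol fetuses the count was 2 with slide as a block and control 130 d replicate 3 left out, an alternative added after seeing the data, and 0 otherwise. Both cortisol comparisons and the difference between them stayed at 0. The number of all probes called was 2443 (536 with normexp) between the control ages and 1720 (339) between the cortisol ages, and the share called higher between the control ages, 51.1%, was 70.8% with a median shift. Normexp moved the median of all probes to 0.20 in the 130 d cortisol comparison, where IRF1 was as near 0 as -0.58. With a replicate block 6 members were called between the control ages, with 2494 probes. Same-numbered samples correlated between -0.17 and 0.36. Some of them share a slide, so these values cannot decide whether the numbers pair samples. No member's call changed under the block. CXCL10 was not well above background on 3 arrays, so the size of its fall is limited by background.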
